A study of Mus musculus with 4 samples.

Results

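Caspases are cysteine proteases that dismantle or remodel cells, and receptor-interacting protein kinases decide whether a cell receiving a death signal survives, undergoes apoptosis or undergoes necroptosis. The 8 genes described here are the inflammatory caspases Casp1 and Casp4, the executioner-type caspase Casp6, the initiator caspase Casp8, the epidermal caspase Casp14, and the necroptosis genes Ripk1, Ripk3 and Mlkl. They were selected by gene name, by a rule that used no measured value although earlier results of these data were known, from 54752 genes measured in mouse epidermis, and all 8 were among the 13609 protein-coding genes tested. Their total RNA levels were compared between the epidermis of 2 Skiv2l fl/fl K14-Cre pups and 2 Skiv2l ctl pups, all C57BL/6 and at postnatal day 0. SKIV2L is the helicase that feeds RNA into the cytoplasmic exosome, and the question was how epidermal RNA changes when keratinocytes lose it. In the Skiv2l fl/fl K14-Cre pups both Skiv2l alleles are floxed and Cre is made constitutively from the keratin 14 promoter, so cells of the epidermis that never used this promoter keep the gene. Their libraries are called knockout libraries and those of the Skiv2l ctl pups controls. The study's control group pools Skiv2l fl/fl animals without Cre, Skiv2l fl/+ animals without Cre, and animals with the K14-Cre transgene whose genotype is Skiv2l fl/+. Which of these genotypes each control library had is not given per sample, so a control could carry Cre and 1 deleted allele.

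In apoptosis, death receptors recruit FADD and caspase-8, which activates executioner caspases. When caspase-8 is inactive, RIPK1 and RIPK3 bind each other, RIPK3 phosphorylates the pseudokinase MLKL, and MLKL breaches the plasma membrane, which is necroptosis. Inflammasomes activate caspase-1, caspase-4 (the mouse gene also known as caspase-11) senses bacterial lipopolysaccharide, and both cleave gasdermin D. Keratinocytes are known for a strong dependence on caspase-8 to hold RIPK3 in check, and for caspase-14, which is largely restricted to cornifying epithelia and helps to break down filaggrin.

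Casp1 and Casp4 are neighbours on chromosome 9 on the same strand, with 1562 bases between the end of one and the start of the other, while the other members lie on separate chromosomes. The 250 bases before the RefSeq start sites (GRCm38.p6) are shown for this pair, because the pair had different patterns in the 4 libraries, and for Casp14 and Ripk3, the other genes with a called difference. They are chr9:5298267-5298516 on the plus strand for Casp1, chr9:5308599-5308848 on the plus strand for Casp4, chr10:78718294-78718543 on the minus strand for Casp14 and chr14:55788858-55789107 on the minus strand for Ripk3. Capitals mark matches to the NF-kB-like letters GGGANTTCC on either strand.
Casp1: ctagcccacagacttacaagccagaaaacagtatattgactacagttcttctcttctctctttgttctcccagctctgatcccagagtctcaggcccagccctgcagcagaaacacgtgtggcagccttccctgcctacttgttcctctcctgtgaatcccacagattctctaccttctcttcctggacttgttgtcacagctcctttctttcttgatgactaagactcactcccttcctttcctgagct
Casp4: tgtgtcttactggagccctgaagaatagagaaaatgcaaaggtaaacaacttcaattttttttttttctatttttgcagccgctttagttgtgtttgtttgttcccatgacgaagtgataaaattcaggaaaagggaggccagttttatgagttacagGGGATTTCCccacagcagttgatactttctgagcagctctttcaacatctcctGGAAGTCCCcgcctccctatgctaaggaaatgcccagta
Casp14: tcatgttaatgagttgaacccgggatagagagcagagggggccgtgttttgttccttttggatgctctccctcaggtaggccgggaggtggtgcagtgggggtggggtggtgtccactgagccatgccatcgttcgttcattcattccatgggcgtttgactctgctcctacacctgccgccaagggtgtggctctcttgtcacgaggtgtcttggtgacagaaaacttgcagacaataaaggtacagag
Ripk3: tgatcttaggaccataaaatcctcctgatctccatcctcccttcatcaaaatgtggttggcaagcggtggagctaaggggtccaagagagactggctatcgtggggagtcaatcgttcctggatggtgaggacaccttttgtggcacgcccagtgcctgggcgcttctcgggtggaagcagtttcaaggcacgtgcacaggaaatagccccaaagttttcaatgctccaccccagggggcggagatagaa

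All 8 members matched the RefSeq promoter table, with 10 windows of 300 bases (250 before and 50 after a start site), since Casp4 and Ripk1 have an additional start site each. The windows were searched on both strands for GAAANNGAA (interferon-response-like), TGANTCA (AP-1-like) and GGGANTTCC. GGGANTTCC was found in 1.68% of 32851 RefSeq promoters of this length, and the Casp4 window held it at 2 places, starting at bases -92 and -39 from the start site. GAAANNGAA was found in 8.56% of all promoters. Among the members it lay 15 bases after the Ripk3 start site, outside the stretch shown, and 5 bases before the additional Ripk1 start site. TGANTCA, found in 7.81% of all promoters, was in no member window, and the Casp1, Casp6, Casp8, Casp14 and Mlkl windows held none of the searched letters. These matches are letters only, and nothing on factor binding was measured. The Casp8 window begins at chr1:58802252, inside the gene, which starts at chr1:58795374. It holds the start of 1 of the 4 GENCODE transcripts of Casp8, so the other starts were not searched.

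Levels are given as FPKM, fragments scaled by the authors for transcript length and library size, so that levels of different genes can be set beside each other. Differences were tested with limma on log2(FPKM + 1), a scale that understates changes of genes with low FPKM, with Benjamini-Hochberg adjustment over the 13609 genes and a call at an adjusted p under 0.05. With 2 libraries per group, an exact two-sided permutation test of a single gene cannot go below 0.333, so each call rests on the spread that limma shares across genes. Depth was alike, at 5.843 to 6.274 aligned gigabases per library. The targeted gene Skiv2l, at 19.3 and 19.1 FPKM in the controls and 10.8 and 8.55 FPKM in knockout libraries, was lower (log2 fold change -0.92, SE 0.12, limma adjusted p = 0.00368), although its exons overlap those of Dxo on the other strand and whether counting used strand is not given in the sources used here. Over all tested genes the median log2 fold change was -0.20, and it was -0.03 with libraries scaled to the same median and -0.05 with quantile normalization. Called genes were 1223 higher and 3455 lower as deposited (26.1% of calls higher), 1894 higher and 1623 lower with median scaling (53.9% higher), and 1683 higher and 1917 lower with quantile normalization (46.8% higher). Without the first control library 497 were higher and 805 lower, and without the second 542 and 810. Keratinocyte markers were detected throughout, with Krt1 at 8246 to 13157 FPKM, and the summed endothelial and muscle markers stayed at or below 0.750 FPKM in every library.

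Of the 8 genes, Ripk3 was higher and Casp1 and Casp14 were lower in knockout epidermis, and the other members were not called. That is 1 of 8 called higher, where 8.99% of all tested genes were, and 2 of 8 called lower, where 25.4% of all tested genes were, so neither share sets these genes apart. Both knockout libraries lay above both controls for 3 members (Casp8, Ripk3 and Mlkl), against 18.2% of all tested genes. They lay below both controls for 3 members (Casp1, Casp6 and Casp14), against 55.3% of all tested genes, and the groups overlapped for Casp4 and Ripk1. Leaving out 1 control library ended a call, that of Casp14 without the first and that of Ripk3 without the second. Casp4 and Mlkl had the lowest levels, and Mlkl passed the requirement of FPKM above 0.5 through 1 library, the first knockout replicate. Because RNA came from whole epidermis, fewer cells of a type and less RNA per cell cannot be told apart for any of these genes.

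**Figure D1:**
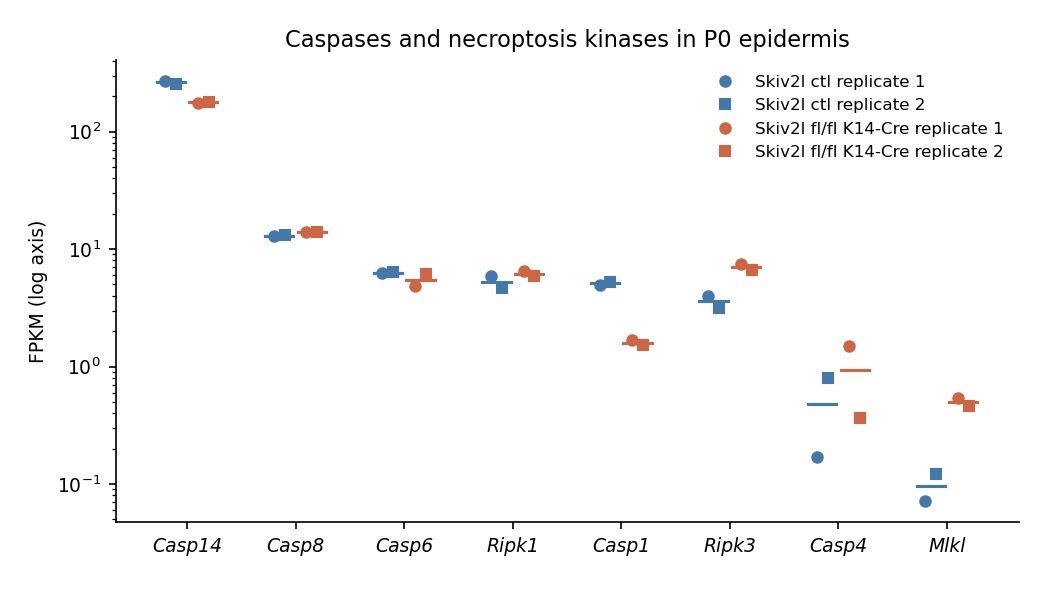
FPKM of the 8 genes (log axis) in each of the 4 libraries, with circles for replicate 1, squares for replicate 2, blue for Skiv2l ctl, orange for Skiv2l fl/fl K14-Cre and a line at each group mean. Casp14 sits far above the rest at 176.6 to 269.9 FPKM, the Casp1 and Ripk3 groups are apart in opposite directions, and the Casp4 points are spread within each group.

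The order of the levels changed below the 2 most abundant members. Casp14 was first and Casp8 second in every library. In the controls Casp6 followed, then Ripk1 and Casp1, whose ranges overlapped (4.65 to 5.87 and 4.995 to 5.21 FPKM), then Ripk3, Casp4 and Mlkl. In knockout libraries Ripk3 moved up to the third place, followed by Ripk1 and Casp6 with overlapping ranges (5.87 to 6.48 and 4.84 to 6.15 FPKM). Casp1 fell to the sixth place, and Casp4 and Mlkl came last with overlapping ranges (0.365 to 1.49 and 0.461 to 0.541 FPKM).

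Casp1 encodes the protease that inflammasomes activate to mature IL-1β and IL-18. Casp1 (ENSMUSG00000025888.5, chr9:5298517-5307265, plus strand) was at 4.995 and 5.21 FPKM in the controls and at 1.68 and 1.52 FPKM in knockout libraries. Replicates were close within each group, and the groups were well apart. The mean was 5.10 ± 0.150 FPKM (SD, n = 2) in control and 1.599 ± 0.118 FPKM (SD, n = 2) in knockout epidermis, which is 3.19-fold lower. The log2 fold change was -1.23 (SE 0.12, 95% interval -1.52 to -0.94, limma adjusted p = 0.00122), and only 1.83% of tested genes had a lower fold change. With libraries scaled to the same median it was -1.08 (limma adjusted p = 0.00176), and the adjusted p lay between 0.000605 and 0.0308 over all alternatives run.

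Some markers of immune cells were lower in knockout libraries, as Casp1 was. Of 5 general leukocyte markers, Ptprc, Coro1a and Laptm5 were lower and none was higher (none at an unadjusted p under 0.05 either), and their summed FPKM was 30.8 to 33.7 in the controls and 16.9 to 22.1 in knockout libraries. The Laptm5 call was lost with median scaling (limma adjusted p = 0.0816) and with quantile normalization (limma adjusted p = 0.0856), while Ptprc and Coro1a kept theirs. Of 7 tested markers of Langerhans cells and macrophages, Cd74, H2-Ab1 and Csf1r were lower and 0 were higher, also at an unadjusted p under 0.05. That is 42.9% lower, and 60% for the leukocyte markers, where 25.4% of all tested genes were. The sums were 86.6 to 97.3 and 62.3 to 66.4 FPKM. Their largest part was Epcam, which was not called (50.8 and 51.2 against 44.2 and 43.6 FPKM). Lyz2 overlapped between the groups, at 0.988 and 5.82 against 3.40 and 2.86 FPKM. Cd207, a Langerhans cell marker, was at 0.0401 and 0.0417 FPKM in the controls and at 0 in both knockout libraries. It was not tested, and these levels are too near 0 in both groups to show a difference. The ratio of Casp1 to Cd74, chosen after the values were seen, was 0.381 and 0.318 in the controls against 0.365 and 0.345 in knockout libraries, so the groups overlapped. The ratio of Casp1 to Ptprc, also chosen afterwards, was 1.40 and 1.57 against 0.899 and 0.887, so Casp1 was lower relative to this pan-leukocyte gene. The part of these cells in the fall of Casp1 was not tested.

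Casp4 (ENSMUSG00000033538.13, chr9:5308828-5336783, plus strand) had no called difference. Its level was 0.169 and 0.799 FPKM in the controls against 1.49 and 0.365 FPKM in knockout libraries. Each group held a high and a low library, and the groups overlapped. The log2 fold change was 0.35 (SE 0.33, 95% interval -0.47 to 1.16, limma adjusted p = 0.440), an interval that leaves room for a change in either direction, and it was -0.09 without the first knockout library. The ratio of Casp4 to Casp1 was 0.0339 and 0.153 in the controls against 0.885 and 0.241 in knockout libraries, above both controls in each. That difference, 2.68 on the log2 scale, had an exact two-sided permutation p of 0.333, the smallest possible.

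Casp8 and Casp6, the apoptotic members, did not pass the test. Casp8 (ENSMUSG00000026029.14, chr1:58795374-58847503, plus strand) encodes the protease that starts death-receptor apoptosis and blocks necroptosis. It was at 12.9 and 13.2 FPKM in the controls and at 13.9 and 14.1 FPKM in knockout libraries. The 4 values lay within a narrow range, with the knockout libraries just above the controls. The log2 fold change was 0.09 (SE 0.09, 95% interval -0.12 to 0.31, limma adjusted p = 0.432), and it was 0.29 with median scaling (limma adjusted p = 0.0580, and up to 0.708 over the alternatives). Casp6 (ENSMUSG00000027997.9, chr3:129901425-129914103, plus strand) encodes a caspase that cleaves lamins. It was at 6.21 and 6.35 FPKM in the controls and at 4.84 and 6.15 FPKM in knockout libraries, where only the first replicate stood clearly lower. Its log2 fold change of -0.17 (SE 0.13, 95% interval -0.49 to 0.15, limma adjusted p = 0.332) became 0.0094 with median scaling and 0.02 with quantile normalization, so no direction can be given.

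Cflar encodes c-FLIP, the catalytically inactive relative of caspase-8 that limits its activation. Cflar was at 11.5 and 14.7 FPKM in the controls and at 18.4 and 16.5 FPKM in knockout libraries, and did not pass the test (log2 fold change 0.39, SE 0.14, limma adjusted p = 0.0668), but was called higher with median scaling (limma adjusted p = 0.0193) and with quantile normalization (limma adjusted p = 0.0312). The ratio of Casp8 to Cflar was 1.12 and 0.899 in the controls against 0.755 and 0.856 in knockout libraries. Both knockout ratios were below both controls, by 0.32 on the log2 scale, with an exact two-sided permutation p of 0.333, the smallest possible. Fadd, the adaptor that brings caspase-8 to death receptors, was at 2.47 and 3.16 against 2.56 and 2.23 FPKM, with overlapping groups.

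Casp14 was by far the most abundant caspase RNA. Of the summed FPKM of the 10 caspase genes examined, Casp14 made up 83.1% and 80.7% in the controls and 79.8% and 80.0% in knockout libraries. Casp14 (ENSMUSG00000005355.9, chr10:78711991-78718294, minus strand) was at 269.9 and 255.2 FPKM in the controls and at 176.6 and 178.1 FPKM in knockout libraries. The replicates of each group were close and the groups were apart. The mean fell from 262.6 ± 10.4 FPKM (SD, n = 2) to 177.4 ± 1.06 FPKM (SD, n = 2), a 1.48-fold difference, with a log2 fold change of -0.56 (SE 0.08, 95% interval -0.76 to -0.37, limma adjusted p = 0.00431). The log2 fold change was -0.35 with median scaling (limma adjusted p = 0.0259), and the call was lost without the first control library (-0.52, limma adjusted p = 0.0555, against 0.00178 as the lowest over the alternatives). By level Casp14 went from rank 133 to rank 222 of the 13609 tested genes. Without Casp14 the caspase sum was 54.8 and 61.2 FPKM in the controls against 44.8 and 44.6 FPKM in knockout libraries, and Casp8 made up 23.5% and 21.6% of it in the controls and 31.0% and 31.6% in knockout libraries.

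Keratinocyte markers differed in both directions in the same libraries. Of the 8 keratinocyte markers, Krt14 was higher, Krt15, Krt1 and Lor were lower, and Krt5, Krt10, Ivl and Flg were not called. The Krt1 call was lost with median scaling (limma adjusted p = 0.177). Krt1 had the highest mean level in both groups, and quantile normalization gives the top gene the same value in every library. It therefore cannot test Krt1. Quantile normalization called Krt5, Krt10 and Flg lower, which median scaling did not. All are among the most abundant genes, where values set by rank can shift strongly. Krt14, Krt15 and Lor kept their calls under both scalings. The summed FPKM of the 8 markers was 31208 to 32316 in the controls and 27870 to 30843 in knockout libraries. Relative to Krt10, a keratin of the suprabasal layers, Casp14 was at 0.0291 and 0.02497 in the controls and at 0.0277 and 0.0220 in knockout libraries. These ratios overlapped between the groups (log2 difference -0.13, exact two-sided permutation p = 0.667, where 0.333 is the smallest possible). The part of differentiation state in the fall of Casp14 was not tested.

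The necroptosis genes ran from no called difference for Ripk1 to a rise of Ripk3. Ripk3 (ENSMUSG00000022221.14, chr14:55784995-55788865, minus strand) encodes the kinase that activates MLKL. It was at 3.997 and 3.18 FPKM in the controls and at 7.46 and 6.70 FPKM in knockout libraries. Both knockout libraries were well above both controls. The mean rose from 3.59 ± 0.581 FPKM (SD, n = 2) to 7.08 ± 0.537 FPKM (SD, n = 2), which is 1.98-fold, with a log2 fold change of 0.82 (SE 0.13, 95% interval 0.50 to 1.15, limma adjusted p = 0.00678). It was 0.998 with median scaling (limma adjusted p = 0.00383), and the call was lost without the second control library (0.69, limma adjusted p = 0.0746, against 0.00267 as the lowest over the alternatives).

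Ripk1 (ENSMUSG00000021408.15, chr13:34002363-34037147, plus strand) encodes the kinase and scaffold that joins TNF receptor signalling to caspase-8 and to RIPK3. It was at 5.87 and 4.65 FPKM in the controls and at 6.48 and 5.87 FPKM in knockout libraries, so the lower library of one group met the higher library of the other. The log2 fold change was 0.20 (SE 0.13, 95% interval -0.13 to 0.53, limma adjusted p = 0.273). Ripk1 values are less certain than the others, because 7.27% of the 75-base stretches of its transcripts also occur in other genes and its exons overlap Serpinb6a on the opposite strand, which was at 24.2 and 29.6 FPKM in the controls and at 51.1 and 46.5 FPKM in knockout libraries. Whether strand was used in counting is not given in the sources used here. The ratio of Ripk3 to Ripk1 was close within groups, 0.681 and 0.683 in the controls and 1.15 and 1.14 in knockout libraries, so that Ripk3 went from below Ripk1 to above it per transcript length. The difference was 0.75 on the log2 scale, with an exact two-sided permutation p of 0.333, the smallest possible.

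Mlkl (ENSMUSG00000012519.14, chr8:111311797-111338177, minus strand) encodes the membrane-breaching effector of necroptosis and was barely detected in the controls. It was at 0.0717 and 0.122 FPKM in the controls and at 0.541 and 0.461 FPKM in knockout libraries. The knockout libraries were above both controls, with means of 0.0968 ± 0.0354 FPKM and 0.501 ± 0.0569 FPKM (SD, n = 2 each) and a ratio of 5.18. The log2 fold change was 0.45 (SE 0.15, 95% interval 0.09 to 0.81) and did not pass the threshold (limma adjusted p = 0.0589). It passed with no filter on low values (limma adjusted p = 0.0165), with limma's variance trend off (limma adjusted p = 0.0239) and with quantile normalization (0.55, limma adjusted p = 0.0371), its adjusted p ranged from 0.0165 to 0.155 over the alternatives, and a pseudocount of 0.1 in place of 1 gave a log2 fold change of 1.62. The authors' mean per-base read depth of Mlkl was 0.371 and 0.656 in the controls against 2.68 and 2.32 in knockout libraries, which shows how few reads lie behind these values. The ratio of Mlkl to Ripk3 was 0.0179 and 0.0384 in the controls against 0.0726 and 0.0688 in knockout libraries, higher in both, with an exact two-sided permutation p of 0.333, the smallest possible.

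**Figure D2:**
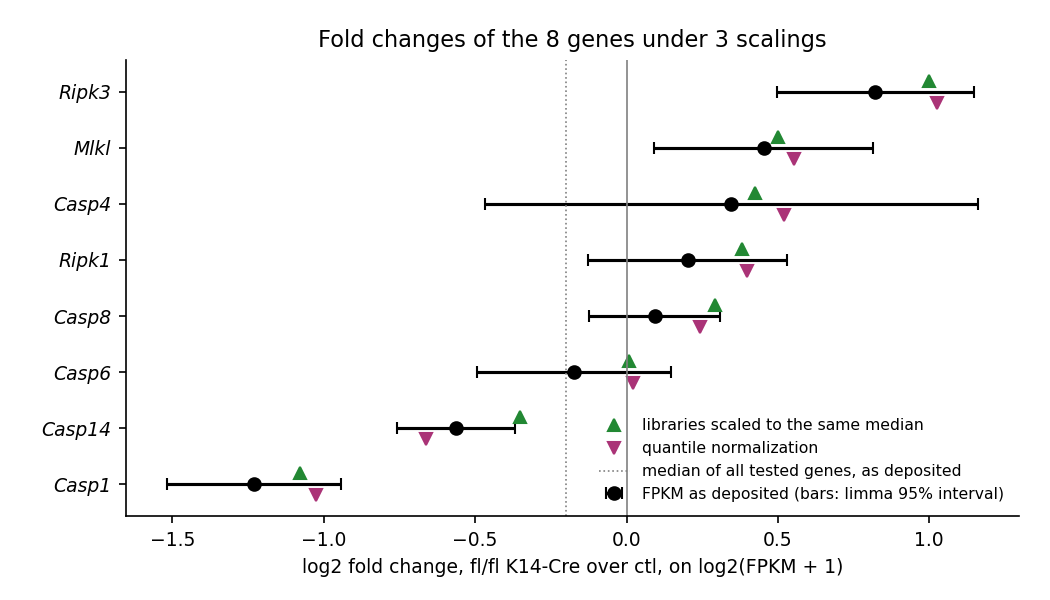
Log2 fold changes of the 8 genes (horizontal axis, Skiv2l fl/fl K14-Cre over Skiv2l ctl, on log2(FPKM + 1)), with black points and 95% limma intervals for the values as deposited, upward triangles for median scaling, downward triangles for quantile normalization and a dotted line at the median of all tested genes, -0.20. Casp1 and Casp14 lie below 0 and Ripk3 and Mlkl above 0 under every scaling, while Casp6 moves from -0.17 to just above 0.

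**Figure D3:**
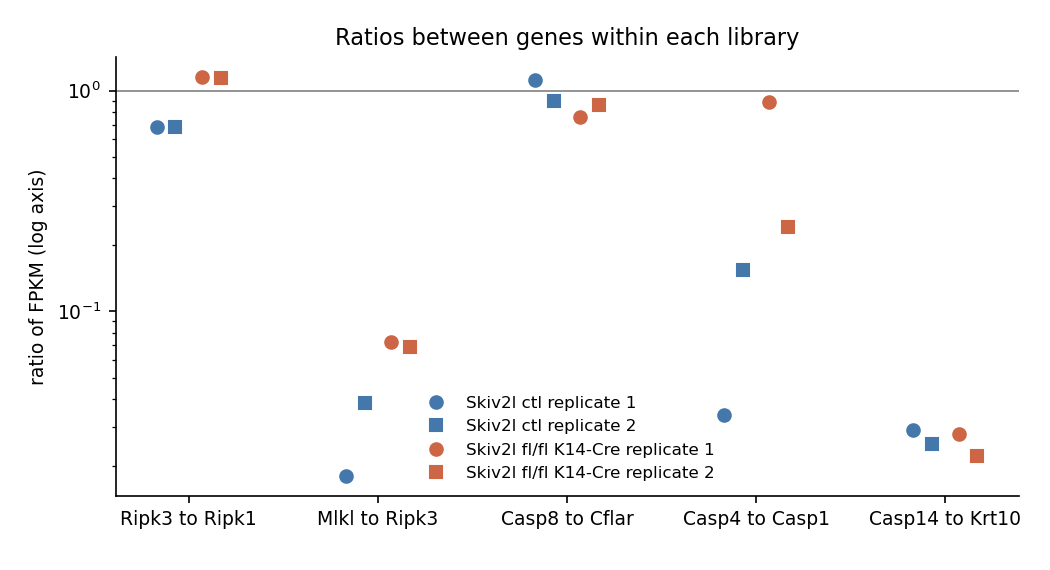
Ratios of FPKM between genes within each library (log axis, line at 1), which do not depend on how libraries are scaled. Circles are replicate 1 and squares replicate 2, blue is Skiv2l ctl and orange Skiv2l fl/fl K14-Cre. Ripk3 to Ripk1 passes from 0.681 and 0.683 to 1.15 and 1.14, whereas the Casp14 to Krt10 values of the groups overlap.

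Some genes on the marker lists of other cells were also higher in the knockout libraries, as Ripk3 was. The 6 T cell markers summed to 18.1 to 18.8 FPKM in the controls and to 43.8 to 47.4 FPKM in knockout libraries through the T cell receptor segments Trbc1 and Trbc2, which are not annotated as protein-coding and were not tested, whereas Cd3e, Cd3g and Trdc lay lower in both knockout libraries than in both controls. Cd3g, for example, was at 1.01 and 1.33 FPKM in the controls and at 0.727 and 0.810 FPKM in knockout libraries, and neither Cd3e nor Cd3g, the 2 tested, was called. Trdc stayed at or below 0.463 FPKM. Cd3d overlapped between the groups, at 0.171 and 0.193 FPKM in the controls and 0.197 and 0.121 FPKM in knockout libraries. Of the 8 neutrophil markers Ly6g and Elane were at 0 in all 4 libraries, and Camp, Ngp, Mpo, Ltf and Retnlg stayed at or below 0.372 FPKM with overlapping groups. Cxcr2 differed from these, at 0.127 and 0.208 FPKM in the controls and at 6.51 and 5.56 FPKM in knockout libraries, and it passed the FPKM requirement only through the knockout libraries. The ratio of Ripk3 to Krt14, chosen after the values were seen, was 0.00230 and 0.00175 in the controls against 0.00101 and 0.000917 in knockout libraries. Krt14 itself was higher, at 1736 and 1812 FPKM in the controls against 7381 and 7312 FPKM in knockout libraries. The basal keratins Krt5 (2003 and 2075 against 1761 and 1759 FPKM) and Krt15 (462 and 428 against 92.1 and 155 FPKM) did not rise. The direction of this ratio therefore depends on the gene chosen, and does not hold for Krt5 or Krt15. Melanocyte markers summed to 47.5 to 54.4 and 50.6 to 63.5 FPKM (1 of 5 higher), and fibroblast markers to 61.3 to 69.0 and 21.9 to 25.04 FPKM (2 of 5 tested lower). Dcn made up most of the fibroblast sums, at 57.0 and 62.7 FPKM in the controls and 16.9 and 21.4 FPKM in knockout libraries. Col1a2 was also lower, a call lost with median scaling (limma adjusted p = 0.0783) and with quantile normalization (limma adjusted p = 0.0921). Col1a1 and Col3a1 overlapped between the groups, and the untested Lum stayed at or below 0.138 FPKM. Pdgfra went the other way, at 0.299 and 0.250 against 0.789 and 0.668 FPKM, and was not called. It was called higher with median scaling (limma adjusted p = 0.0470) and with quantile normalization (limma adjusted p = 0.0253). Pdgfra passed the FPKM requirement only through the knockout libraries. The part of other cells in the levels of these 8 genes was not tested beyond the values given.

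Genes upstream and around the members were read from lists of the pathways. Among 10 death receptors and ligands, 7 were tested, 3 were higher, 1 was lower and the median log2 fold change was 0.02. That is 42.9% higher and 14.3% lower, where 8.99% and 25.4% of all tested genes were called and their median was -0.20. The genes called higher were receptors, though other tested receptors were not called. The gene called lower was Tnf, the only ligand tested, so no contrast of receptors with ligands is read. Tnfrsf10b, the TRAIL receptor, was at 1.86 and 2.24 FPKM in the controls and 3.74 and 3.92 FPKM in knockout libraries (log2 fold change 0.67, limma adjusted p = 0.0115). Tnfrsf1a, the main TNF receptor of epithelia, was at 64.7 and 61.5 against 82.4 and 81.6 FPKM (0.37, limma adjusted p = 0.0158). Ltbr, the lymphotoxin β receptor, was at 9.89 and 13.6 against 22.0 and 18.1 FPKM (0.73, limma adjusted p = 0.0205). These 3 remained called under both other scalings, but Tnf did not. Tnf was at 1.04 and 0.966 against 0.423 and 0.332 FPKM (-0.54, limma adjusted p = 0.0306), and it passed the FPKM requirement only through the control libraries. The list had 0 calls without the first control library, 1 without the second and 2 without the first knockout library.

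The 24 genes that assemble or restrain the death complexes were all tested, and 3 were lower and 0 higher (1 higher at an unadjusted p under 0.05), with a median log2 fold change of -0.14. The 12.5% lower is a smaller share than the 25.4% of all tested genes. Those lower were Tab3 (-0.51, limma adjusted p = 0.0163) and Tab2 (-0.37, limma adjusted p = 0.0198), adaptors of the kinase TAK1, and Rbck1 (-0.36, limma adjusted p = 0.0188), a subunit of the linear ubiquitin ligase. The directions depended on scaling, since median scaling called 2 higher (Tradd and Cflar) and 0 lower, and quantile normalization called the same 2 higher and 1 lower. Without either control library in turn, 0 were called. Zbp1, the nucleic acid sensor that can engage RIPK3 directly, was at 0.244 and 0.418 FPKM in the controls and 0.421 and 0.608 FPKM in knockout libraries, and did not pass the test (0.19, limma adjusted p = 0.387). It passed the FPKM requirement only through the second knockout library.

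Of 15 inflammasome genes, 6 were tested, with 2 lower and 0 higher (0 higher also at an unadjusted p under 0.05) and a median log2 fold change of -0.18. The 33.3% lower is near the 25.4% of all tested genes, so nothing is read from the count. The 9 not tested, most of the sensors among them, stayed at or below 0.430 FPKM. Aim2, a sensor of cytosolic DNA, was at 2.11 and 2.89 FPKM in the controls and at 1.39 and 0.932 FPKM in knockout libraries (-0.69, limma adjusted p = 0.0288). Pycard, the adaptor ASC that links sensors to caspase-1, was at 22.6 and 24.3 against 17.5 and 14.5 FPKM (-0.53, limma adjusted p = 0.0169), with exons that overlap Gm45205 on the opposite strand. Median scaling called neither of them, and called Nek7 higher, while quantile normalization left 1 gene lower. Gsdmd, the pore former cleaved by caspase-1 and caspase-4, was at 1.48 and 1.46 against 1.91 and 1.66 FPKM (0.17, limma adjusted p = 0.334), and the caspase-1 substrate Il1b was at 0.506 and 0.288 against 0.452 and 0.237 FPKM. Neither passed the test. Without either control library in turn 0 of the list were called, and 1 was without the second knockout library.

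Among the other caspases, 4 of 5 were tested, 2 were lower and 0 higher (0 higher also at an unadjusted p under 0.05), with a median log2 fold change of -0.40, where 25.4% of all tested genes were lower and 8.99% higher. With 4 genes, nothing is read from the count. Casp2 was at 19.2 and 22.5 FPKM in the controls and 12.7 and 13.7 FPKM in knockout libraries (-0.62, limma adjusted p = 0.00917). Casp9, the initiator of the mitochondrial route, was at 4.87 and 5.50 against 3.87 and 3.08 FPKM (-0.47, limma adjusted p = 0.0422), with exons that overlap Cela2a and Ctrc on the opposite strand. With either alternative scaling 1 of the 2 calls was lost, and 1, 0 and 1 were left without the first control, the second control and the second knockout library. The mitochondrial route itself had 19 of 21 genes tested, 1 higher and 2 lower (5.26% and 10.5%, against 8.99% and 25.4% of all tested genes), and a median of -0.16, but 3 higher (Pmaip1, Apaf1 and Mcl1) and 1 lower with median scaling. It had 1 call without either control library in turn and 5 without the first knockout library. Pmaip1, which encodes the BH3-only protein NOXA, was at 5.21 and 5.11 FPKM in the controls and at 17.3 and 12.9 FPKM in knockout libraries (1.37, SE 0.15, limma adjusted p = 0.00173). Of the other BH3-only genes, Bik and Bmf were lower, with Bik at 1.78 and 1.80 against 0.504 and 0.101 FPKM (-1.12, limma adjusted p = 0.00739) and Bmf at a log2 fold change of -0.74 (limma adjusted p = 0.0188). The Bmf call was lost with median scaling (limma adjusted p = 0.0505) and with quantile normalization (limma adjusted p = 0.0702), and Bid, Bad, Bcl2l11 and Bbc3 were not called.

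Filaggrin processing, the pathway in which caspase-14 acts, had all 12 genes tested, 2 higher and 3 lower, and a median log2 fold change of -0.16. The share lower is near the 25.4% of all tested genes, and the 16.7% higher stands beside 8.99%, so nothing is read from these counts. Blmh, bleomycin hydrolase, which acts on filaggrin fragments after caspase-14, was at 227.9 and 224.4 FPKM in the controls and at 383.9 and 390.4 FPKM in knockout libraries (0.77, limma adjusted p = 0.00145), opposite to Casp14. Spink5, an inhibitor of epidermal proteases, was also higher (1.06, limma adjusted p = 0.00166). Lower were Hal, which converts filaggrin-derived histidine (-1.49, limma adjusted p = 0.00339), Padi1, a filaggrin-modifying deiminase (-1.49, limma adjusted p = 0.00564, exons overlapping Gm13032), and the filaggrin relative Flg2, at 706.0 and 635.1 against 271.0 and 222.2 FPKM (-1.44, limma adjusted p = 0.000831). Flg itself was at 4087 and 3658 against 3460 and 3053 FPKM and was not called. Quantile normalization called it lower (log2 fold change -1.11), but with median scaling the value was -0.04 and not called. Flg is among the most abundant genes, where values set by rank can shift strongly, so its quantile call is not read as a fall. The list had 4 higher and 3 lower with median scaling and 2 higher and 5 lower with quantile normalization. The quantile count carries the same limit, since Flg is among its genes called lower.

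**Figure D4:**
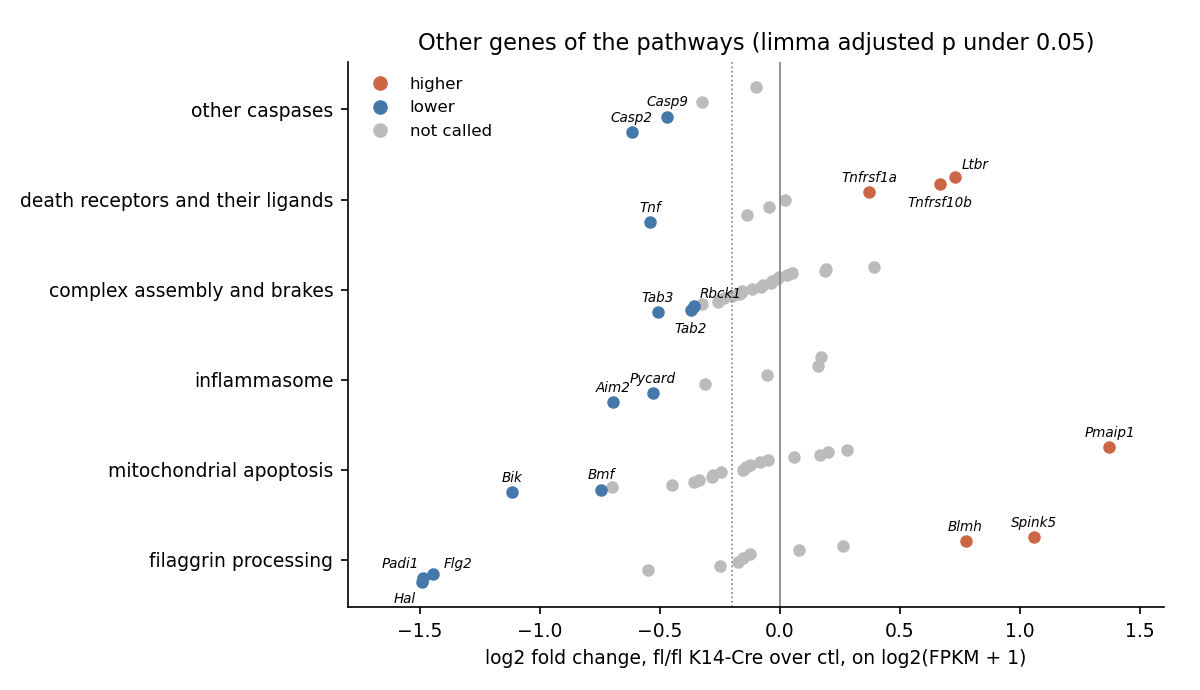
Log2 fold changes (horizontal axis, Skiv2l fl/fl K14-Cre over Skiv2l ctl, on log2(FPKM + 1)) of the tested genes in 6 pathway lists, 1 point per gene, orange for called higher, blue for called lower and grey for not called, with a dotted line at the median of all tested genes, -0.20. The called receptors lie to the right and Tnf to the left, and the called inflammasome genes and other caspases all lie to the left.

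The tested genes most like each called member over the 4 libraries, by Euclidean distance of log2(FPKM + 1) from the control mean, were Fam189a2 (0.0309), Gtf2ird1 (0.0591) and Mboat2 (0.0728) for Casp1. They were Ptprz1 (0.0460), Sfn (0.0785) and Oit1 (0.0864) for Ripk3, and G3bp2 (0.0192), Hexdc (0.0273) and Rpa2 (0.0297) for Casp14. Within a distance of 0.2 lay 901 genes for Casp14 but 76 for Casp1 and 48 for Ripk3, so the Casp14 pattern was a common one among these libraries. The 4 libraries share 1 contrast, and these likenesses are descriptions only.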

How the data were processed

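Epidermal total RNA of 4 different pups, 2 Skiv2l ctl and 2 Skiv2l fl/fl K14-Cre, was analysed, with groups and replicate numbers taken from the labels. Per the study's methods the RNA was processed with an institutional workflow, whose aligner, settings and strandedness are not given in the sources used here. The authors deposited for each gene the FPKM (scaled for length and library size), the TPM (scaled to a common sum) and the coverage signal (mean per-base depth). The build, GRCm38, is from the submitters' processing notes, and 54029 of 54752 genes matched GENCODE M21 positions. FPKM of an identifier listed more than once were summed.

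Of 21921 protein-coding genes, the 13609 with FPKM over 0.5 in at least 1 library went into a two-sided limma 3.58.1 fit (R 4.3.3) of log2(FPKM + 1), using lmFit and a trended eBayes, with Benjamini-Hochberg adjustment at 0.05. Ratios were tested by exact permutation. No counts were used, so counting error is unknown, and the 2 pups per group limit the precision. The members and lists were chosen with earlier results of these data known. Named are all members, up to 4 called genes per list with the largest change, Skiv2l, Cflar, Fadd, Zbp1, Tnf, Gsdmd, Il1b and the 3 genes nearest to each called member. Blmh, Flg, Tradd, Nek7, Apaf1, Mcl1, the uncalled BH3-only genes, the markers and the genes overlapping a named gene are outside this rule and were named after their values were seen. Promoters are from RefSeq. Protein sequences were not used here. Alternatives were a pseudocount of 0.1, FPKM over 1 in at least 2 libraries, no filter, TPM, median scaling, quantile normalization, no trend, all gene types, a replicate block and leaving out each library.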

Additional observations from a re-analysis of the deposited data

How the results depend on the processing

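Casp1 kept its direction and its call under all 14 alternatives run, with log2 fold changes from -1.62 to -1.03, and Ripk3 and Casp14 kept theirs under 13 of 14 each. Leaving out 1 library in turn gave 497 to 1146 genes called higher and 805 to 3135 lower, 0 to 1 members higher and 1 to 2 lower, with Ripk3 at 0.69 to 0.95, Casp14 at -0.60 to -0.52 and Casp4 at -0.087 to 0.78. It gave 0 to 2 calls among the other caspases, 0 to 3 among the receptors and ligands, 0 to 4 in the assembly list, 0 to 3 in the inflammasome list and 1 to 5 in the mitochondrial list. Where an arm was left with 1 library, that library was assumed to vary like the other group. Mlkl became called with no filter and without the trend (0.45 each) and with quantile normalization (0.55), which brought the members called higher to 2. Median scaling gave 1894 genes higher and 1623 lower, and quantile normalization 1917 lower. Casp6 changed sign with median scaling (0.0094) and quantile normalization (0.020), and Casp4 without the first knockout library (-0.087). Calls among the other caspases came to 1 with no filter, median scaling, all gene types and quantile normalization, and those in the inflammasome list to 1 with both scalings. TPM gave 5 calls in the assembly list and 5 in the mitochondrial list. The causes were not tested. With FPKM over 1 in at least 2 libraries, Casp4 and Mlkl had no value. Same-numbered libraries did not deviate together (r = -0.077 over 13609 genes). With 2 libraries per group this cannot settle whether the numbers pair the pups. A fit with the replicate block, with 1264 genes higher and 3393 lower, changed no call of a member and moved no count above by over 1.5 times. Depth limits Casp4 and Mlkl most, since a mean per-base depth below 4 lies behind both in every library.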
